A study of Bos taurus with 2 samples.

Results

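The striated muscle miRNAs are 5 of the 883 miRNAs counted in small RNA libraries of the bovine mammary gland (MG), of which 543, the 5 included, had reads in both libraries. They are mir-1-3p, mir-133a-3p, mir-133b-3p, mir-206-3p and mir-499-5p, and they were chosen by name from the 283 known bovine miRNAs, with every arm that was analysed. A single arm of each pre-miRNA was analysed, the 3p arm for the first 4 and the 5p arm for mir-499. The lactation library, here lactating MG, came from a 6-year-old multiparous Holstein cow, 2 months into milk. The non-lactation library, here non-lactating MG, came from a non-lactating and non-pregnant multiparous Holstein cow of 4 years. Each condition thus had 1 library from 1 animal, so stage, age and animal cannot be told apart, and the differences have no replicate library. The paper also ran a microarray on RNA that pooled the sequenced cow of each stage with further cows, and its signals were not analysed here.

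miRNAs are short RNAs that are cut from the arms of hairpin precursors and pair with target mRNAs mainly through their seed, bases 2 to 8. mir-1, mir-133a, mir-133b, mir-206 and mir-499 are widely used as markers of striated muscle. mir-1 and mir-133a are made in heart and skeletal muscle, mir-206 and mir-133b mainly in skeletal muscle, and mir-499 in heart and slow muscle fibres. In mouse muscle mir-1 and mir-206 favour differentiation of myoblasts, whereas mir-133 has been linked to their proliferation. The secretory and ductal tissue of the MG is built of epithelium, myoepithelium and stroma, with striated muscle outside the gland.

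The most abundant sequence of each miRNA in the deposited counts is shown because the family relations, and a limit on telling mir-133a from mir-133b, can be read from it. The seed is in capitals.
mir-1-3p: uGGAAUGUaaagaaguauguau
mir-206-3p: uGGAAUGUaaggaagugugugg
mir-133a-3p: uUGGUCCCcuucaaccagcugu
mir-133b-3p: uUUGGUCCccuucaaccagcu
mir-499-5p: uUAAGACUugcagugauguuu

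mir-1-3p and mir-206-3p shared the seed GGAAUGU, and no other of the 883 miRNAs had it. Both are 22 nt long and differ by 4 substitutions, A11G, A17G, A21G and U22G, counted from the 5′ end with the base of mir-1-3p first. The listed sequence of mir-133a-3p starts a base later than that of mir-133b-3p, so that its bases 1 to 20 are bases 2 to 21 of mir-133b-3p and the seeds, UGGUCCC and UUGGUCC, differ by this shift. No other of the 883 miRNAs had either of these seeds or the seed UAAGACU of mir-499-5p.

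The target sequences that the study lists for its microarray probes of this family show what the shift does. The seed is again in capitals.
bta-miR-133a: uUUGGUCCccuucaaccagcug
bta-miR-133b: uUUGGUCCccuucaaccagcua

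These targets share the seed and differ only at their last base, by G22A with the base of bta-miR-133a first. Bases 1 to 21 of mir-133a-3p as listed are bases 2 to 22 of the bta-miR-133a target, so the most abundant mir-133a sequence of the MG lacked a base at its 5′ end and had a further base at its 3′ end. Of 181 known miRNAs that matched a probe target by name over at least 15 nt, 162 started at the first base of the target and 10, mir-133a-3p among them, started 1 base later. All 21 bases of mir-133b-3p as listed are also bases 1 to 21 of the bta-miR-133a target. Reads of exactly that sequence cannot be assigned to mir-133b rather than mir-133a from sequence alone, and the mir-133b-3p values below carry this limit. The listed mir-1-3p sequence equals its probe target over all 22 bases.

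The 5 pre-miRNAs are listed at 3 places of the bovine genome (BTA 4.0), all on the plus strand. The mir-1 hairpin is at chr24:35579228-35579312 and the mir-133a hairpin at chr24:35582547-35582633, with 3234 nt between them. The mir-206 hairpin is at chr23:25079829-25079914 and the mir-133b hairpin at chr23:25083929-25084012, with 4014 nt between them. These pairs join a seed of the mir-1 group to a member of the mir-133 group at each place. The mir-499 hairpin is at chr13:64874840-64874942 and had no other analysed pre-miRNA within 10 kb. In the RefSeq gene table of the later assembly ARS-UCD2.0, MIR1-2 and MIR133A-2 lie within the span of MIB1, an E3 ubiquitin ligase of Notch signalling, and MIR499 within that of MYH7B, a myosin heavy chain gene. MIR206 and MIR133B are each other's nearest miRNA gene there and lie within a long non-coding RNA gene. The same table has 2 genes each for mir-1 and mir-133a, whose mature sequences are known to be alike in mammals, so reads of such loci are summed in a single entry here.

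Both libraries listed all 5 miRNAs, over a range of more than 3 orders of magnitude that mir-1-3p led. Reads of the most abundant sequence were scaled to RPM, which are reads per 1000000 clean reads of the library. The most abundant sequences of all 883 miRNAs summed to 5745936 reads in lactating MG and 7879028 in non-lactating MG. A single read was 0.0836 RPM in lactating MG and 0.0626 RPM in non-lactating MG, and the lowest listed value was 3 reads. Intervals are exact 95% intervals (Clopper-Pearson) of counting error alone, because reads copied by PCR do not count separate molecules. Ratios are of RPM, lactating MG over non-lactating MG, with an interval conditional on the summed reads. Fisher's exact test (two-sided, Bonferroni adjusted over 883 miRNAs) took the reads of a miRNA against all other clean reads and compares these libraries, not the conditions. In tissue of mixed cells, more cells of a type and more of a miRNA per cell cannot be told apart.

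mir-1-3p, the miRNA that marks heart and skeletal muscle alike, had 52558 reads (4393 RPM, 4355 to 4430) in lactating MG and 11041 reads (691 RPM, 679 to 704) in non-lactating MG. It was 14th by reads of the most abundant sequence among the 283 known miRNAs in lactating MG and 40th in non-lactating MG. Its ratio was 6.35 (6.22 to 6.49), with no overlap of the RPM intervals, and it passed Fisher's exact test, with an adjusted p too small to be computed. It held 0.933% of the summed most abundant sequences of known miRNAs in lactating MG and 0.144% in non-lactating MG. With all isomiRs (length and sequence variants), the 5 muscle miRNAs together held 0.653% of known miRNA reads in lactating MG and 0.0924% in non-lactating MG. By its most abundant sequence, a miRNA known from muscle thus stood among the abundant miRNAs of this lactating gland. This count favours mir-1-3p, whose reads lie mostly on that sequence. With all isomiRs, several miRNAs that ranked lower by that sequence exceeded mir-1-3p (63337 reads) in lactating MG. They were mir-140-3p (125301), let-7i-5p (122311), mir-320-3p (105506), mir-23a-3p (90330), mir-199a-3p (88556), mir-145-5p (87689), mir-101-3p (87450), mir-143-3p (75661) and mir-200b-3p (68253).

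mir-133a-3p, the neighbour of mir-1 on chromosome 24, had 1027 reads (85.8 RPM, 80.7 to 91.2) in lactating MG and 68 reads (4.26 RPM, 3.31 to 5.40) in non-lactating MG. The ratio of 20.2 (15.8 to 26.2) was the 6th highest among 273 miRNAs with at least 100 summed reads, where mir-1-3p was 18th. Fisher's exact test gave an adjusted p of 4.53e-283. By reads it was 86th of the known miRNAs in lactating MG and 170th in non-lactating MG.

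mir-499-5p, the miRNA hosted by a myosin gene, had 160 reads (13.4 RPM, 11.4 to 15.6) in lactating MG and 82 reads (5.14 RPM, 4.08 to 6.37) in non-lactating MG. Its ratio of 2.60 (1.98 to 3.44) was lower than that of mir-1-3p and of mir-133a-3p, and the 3 intervals did not overlap. It passed Fisher's exact test (adjusted p = 3.15e-10) and ranked 51st of the 273 by ratio. It was 137th by reads in lactating MG and 162nd in non-lactating MG.

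The skeletal muscle pair on chromosome 23 was near the lowest listed value in both libraries. mir-206-3p had 13 reads (1.09 RPM, 0.579 to 1.86) in lactating MG and 5 reads (0.313 RPM, 0.102 to 0.731) in non-lactating MG, a ratio of 3.47 (1.16 to 12.4). mir-133b-3p had 10 reads (0.836 RPM, 0.401 to 1.54) in lactating MG and 7 reads (0.438 RPM, 0.176 to 0.903) in non-lactating MG, a ratio of 1.91 (0.655 to 5.90). Their RPM intervals overlapped between the libraries and neither passed Fisher's exact test with Bonferroni adjustment. The ratio interval of mir-206-3p lay above 1, with an adjusted p of 0.0353 for the same exact test under Benjamini-Hochberg adjustment, so its call depended on the adjustment. That of mir-133b-3p held 1, and a difference was not detectable at this depth. The interval of mir-133b-3p ended below that of mir-133a-3p, although all of its listed bases also occur in the mir-133a target.

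**Figure D1:**
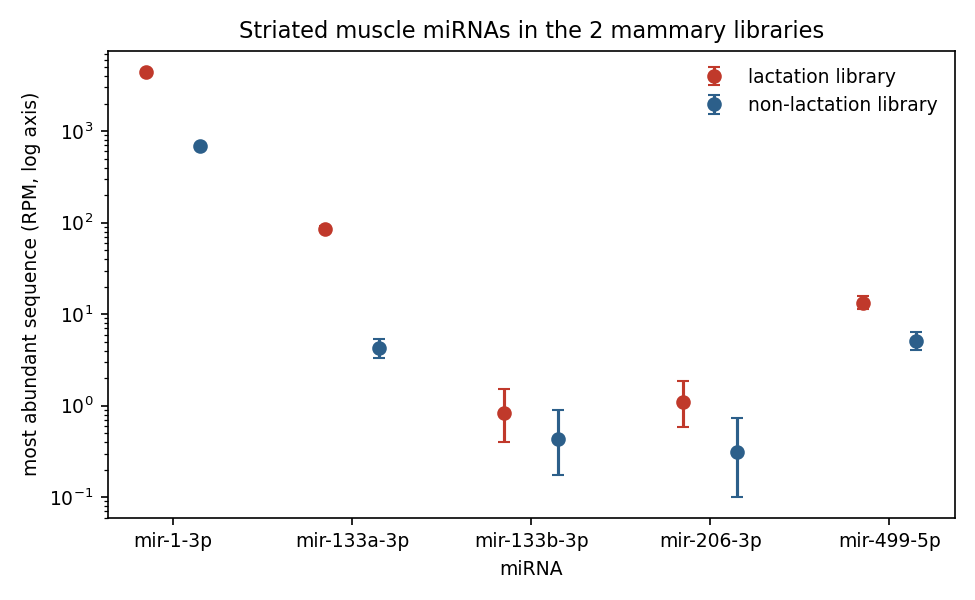
RPM of the most abundant sequence (log axis) of the 5 striated muscle miRNAs, with lactating MG at the left of each pair and non-lactating MG at the right, and exact 95% intervals of counting error as bars. mir-1-3p had 4393 and 691 RPM in lactating MG and non-lactating MG, and the bars overlap only for mir-133b-3p and mir-206-3p.

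Of the 5 miRNAs, 3 passed Fisher's exact test as higher in lactating MG and none passed as lower. Over all 883 miRNAs, 17.4% passed as higher and 10.9% as lower. Of the 3 with at least 100 summed reads, mir-1-3p and mir-133a-3p were 4-fold or more above non-lactating MG, where 10.6% of the 273 miRNAs with that many reads were. mir-499-5p was at least 2-fold but not 4-fold higher, so that all 3 passed the lower limit, which 28.9% of the 273 passed. None of the 3 was lower by 4-fold (5.86% of the 273) or by 2-fold (22.7%). Over the 273, 29 were at least 4-fold higher and 16 at least 4-fold lower, a split that became 24 and 29 without scaling, 26 and 25 with TMM and 26 and 26 with DESeq2 size factors. The median log2 ratio of the 5 was 1.79, beside 0.24 for the 273 miRNAs and 0.28 for the 543 listed in both libraries. Relative to the median of the 273, which scaling moves together with each member, the log2 ratios were 4.10 for mir-133a-3p, 2.43 for mir-1-3p, 1.56 for mir-206-3p, 1.14 for mir-499-5p and 0.69 for mir-133b-3p. The summed reads of the 5 gave 4494 RPM in lactating MG and 702 RPM in non-lactating MG (ratio 6.41, 6.28 to 6.54). Without mir-1-3p the sums were 101 RPM in lactating MG and 10.1 RPM in non-lactating MG, a ratio of 9.97 (8.45 to 11.8) in which mir-133a-3p held most of the reads.

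**Figure D2:**
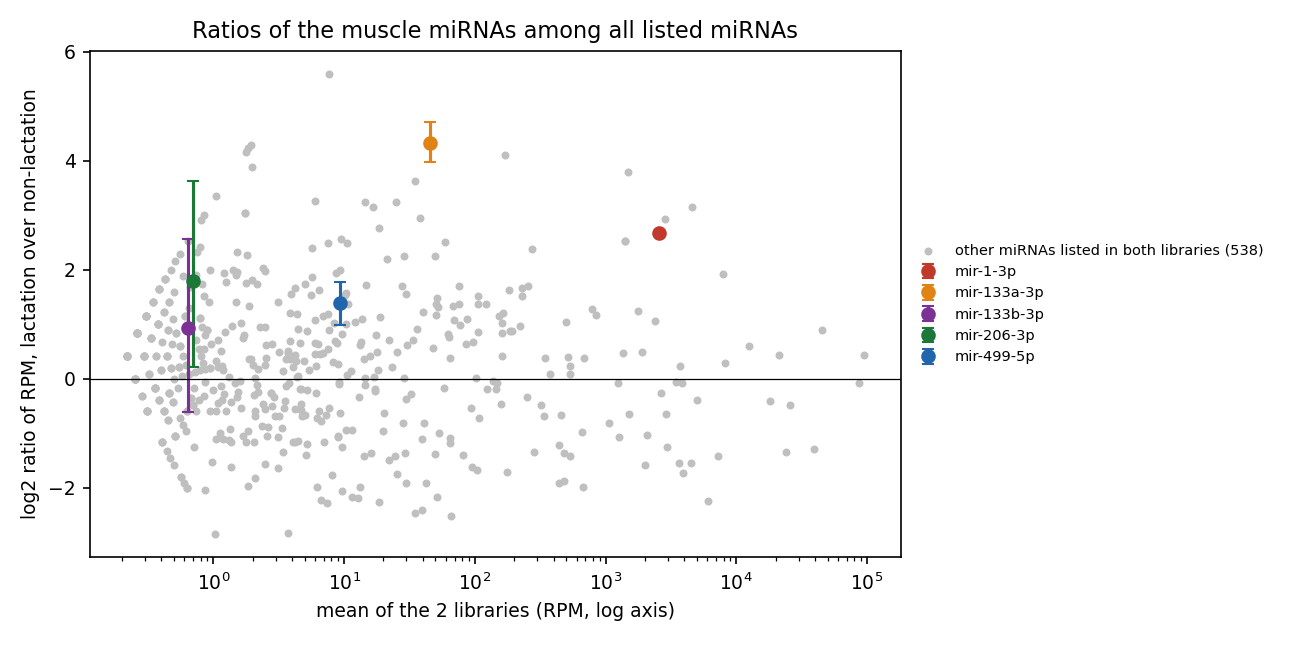
Ratio of RPM on a log2 scale, lactating MG over non-lactating MG, against the mean RPM of the 2 libraries (log axis), for miRNAs listed in both libraries. The 5 muscle miRNAs are coloured, with exact 95% intervals as bars, and the other 538 are grey. All 5 lie above 0, and the bar of mir-133b-3p crosses it.

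mir-1-3p had the highest level in both libraries. The listed order below it differed between them, but the neighbours that changed places were within counting error of each other in non-lactating MG. Since all 5 sequences are 21 or 22 nt long, the order of RPM is also the order of RPM per nt. In lactating MG mir-1-3p was 51.2-fold (48.1 to 54.5) above mir-133a-3p, which was 6.42-fold (5.43 to 7.63) above mir-499-5p, and that 12.3-fold (7.0 to 23.6) above mir-206-3p. In non-lactating MG mir-1-3p was followed by mir-499-5p, 135-fold (108 to 169) lower, and the difference of mir-499-5p from mir-133a-3p (1.21-fold, 0.864 to 1.69) was within counting error. mir-206-3p and mir-133b-3p did not differ beyond counting error in lactating MG (1.30-fold, 0.527 to 3.31) or in non-lactating MG, where mir-133b-3p was the higher (1.40-fold, 0.382 to 5.59).

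The proportion of mir-133a-3p to mir-1-3p was not fixed. RefSeq has 2 genes for each, so these reads cannot be assigned to the hairpins on chromosome 24 alone. mir-133a-3p made up 1.92% (1.80% to 2.04%) of the summed mir-1-3p and mir-133a-3p reads in lactating MG and 0.612% (0.476% to 0.775%) in non-lactating MG. This share is taken within a library and needs no scaling. With all isomiRs, the length and sequence variants of a miRNA, it was 3.17% (3.03% to 3.30%) in lactating MG and 1.23% (1.05% to 1.44%) in non-lactating MG, so the intervals were apart in either count. For the pair on chromosome 23, mir-133b-3p made up 10 of 23 reads (43.5%, 23.2% to 65.5%) in lactating MG and 7 of 12 reads (58.3%, 27.7% to 84.8%) in non-lactating MG, and these intervals overlapped widely. With all isomiRs mir-133b-3p made up 26 of 39 reads (66.7%, 49.8% to 80.9%) in lactating MG and 10 of 15 reads (66.7%, 38.4% to 88.2%) in non-lactating MG, so that mir-133b-3p had more reads than mir-206-3p in lactating MG too, with an interval that still held equal reads. The skeletal muscle pair together had 23 reads in lactating MG, beside 53585 reads of mir-1-3p and mir-133a-3p.

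The reads of mir-1 were concentrated on a single sequence. All isomiRs of mir-1-3p had 63337 reads in lactating MG and 12981 in non-lactating MG, and the most abundant sequence held 83.0% of them in lactating MG (82.7% to 83.3%) and 85.1% in non-lactating MG (84.4% to 85.7%). Among known miRNAs whose isomiR reads were within 2-fold of those of mir-1-3p, all 22 in lactating MG (median 39.6%, highest 78.5%) and all 21 in non-lactating MG (median 51.1%, highest 78.1%) had a lower share. mir-1-3p had 120 isomiR kinds (distinct sequences) in lactating MG, where the 22 similar miRNAs had 123 to 356 kinds. In non-lactating MG it had 45 kinds, within the 33 to 92 kinds of the 21 similar miRNAs. The isomiRs other than the most abundant sequence had 10779 reads in lactating MG and 1940 in non-lactating MG, a ratio of 7.42 (7.06 to 7.79), which is above the interval for the most abundant sequence.

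The most abundant sequence of mir-133a-3p held a smaller share than that of mir-1-3p. Its isomiRs had 2072 reads of 31 kinds in lactating MG and 162 reads of 9 kinds in non-lactating MG, and the most abundant sequence held 49.6% of them in lactating MG (47.4% to 51.7%) and 42.0% in non-lactating MG (34.3% to 50.0%). These shares were close to the medians of known miRNAs of similar reads, 46.2% (36 miRNAs) in lactating MG and 48.0% (49 miRNAs) in non-lactating MG. Counted by all isomiRs its ratio was 17.1 (14.5 to 20.2), and counted by the isomiRs other than the listed sequence it was 14.8. About as many mir-133a-3p reads thus lay outside the listed sequence, which starts a base late, as in it. The deposited counts give no sequence for the other isomiRs, so the share that starts at the first base of the target was not analysed here.

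mir-499-5p had few kinds for its reads. All isomiRs had 258 reads of 5 kinds in lactating MG and 162 reads of 4 kinds in non-lactating MG. Of known miRNAs within 2-fold of its reads, 3 of 52 had fewer kinds in lactating MG (median 8) and none of 49 in non-lactating MG (median 7, lowest 4). The most abundant sequence held 62.0% (55.8% to 68.0%) in lactating MG and 50.6% (42.7% to 58.6%) in non-lactating MG. Its ratio was 2.13 (1.74 to 2.60) with all isomiRs and 1.63 (1.20 to 2.22) for the isomiRs other than the most abundant sequence. In non-lactating MG mir-499-5p and mir-133a-3p had the same 162 isomiR reads, in 4 kinds and 9 kinds.

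All reads of mir-206-3p were of its most abundant sequence, 13 of 13 in lactating MG (100%, 75.3% to 100%) and 5 of 5 in non-lactating MG (100%, 47.8% to 100%), which makes 1 kind in each. mir-133b-3p had 26 isomiR reads of 5 kinds in lactating MG and 10 of 2 kinds in non-lactating MG, a ratio of 3.47 (1.62 to 8.06) that again did not pass Fisher's exact test (adjusted p = 0.426 over 781 miRNAs with isomiR reads). Its most abundant sequence held 10 of the 26 reads in lactating MG and 7 of the 10 in non-lactating MG. At these depths the composition of either miRNA is known only within wide limits.

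**Figure D3:**
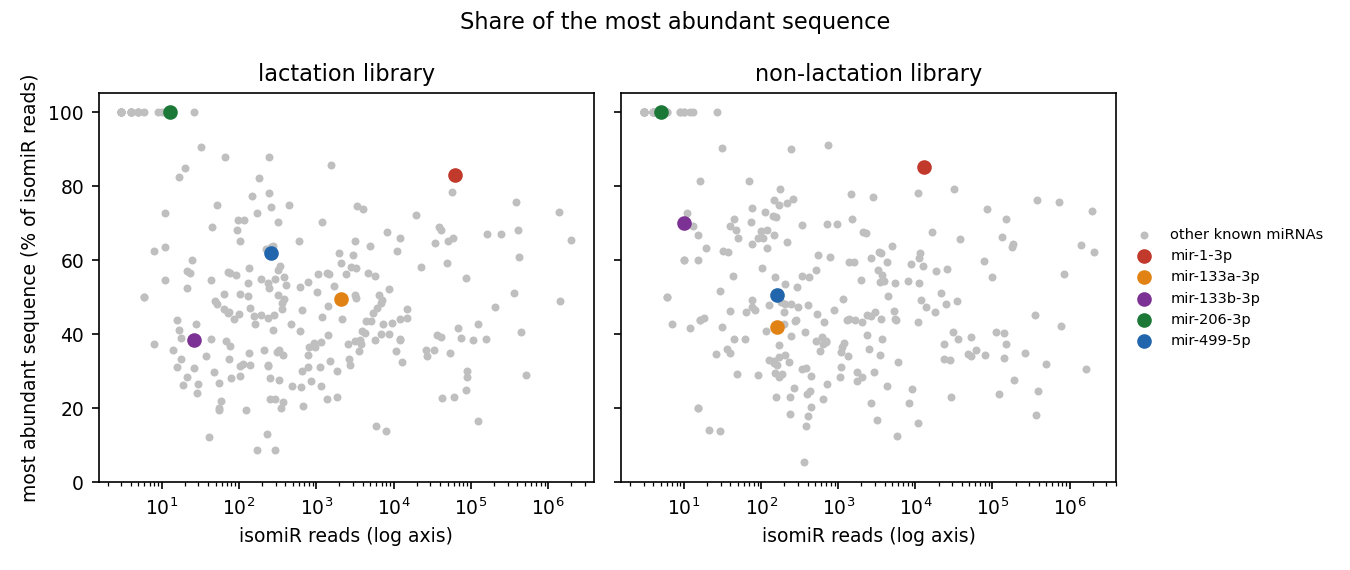
Share of isomiR reads held by the most abundant sequence (%), against isomiR reads (log axis), for known miRNAs in lactating MG (left) and non-lactating MG (right). Muscle miRNAs are coloured and the others grey. mir-1-3p, at 83.0% in lactating MG and 85.1% in non-lactating MG, lies above all known miRNAs within 2-fold of its reads.

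**Figure D4:**
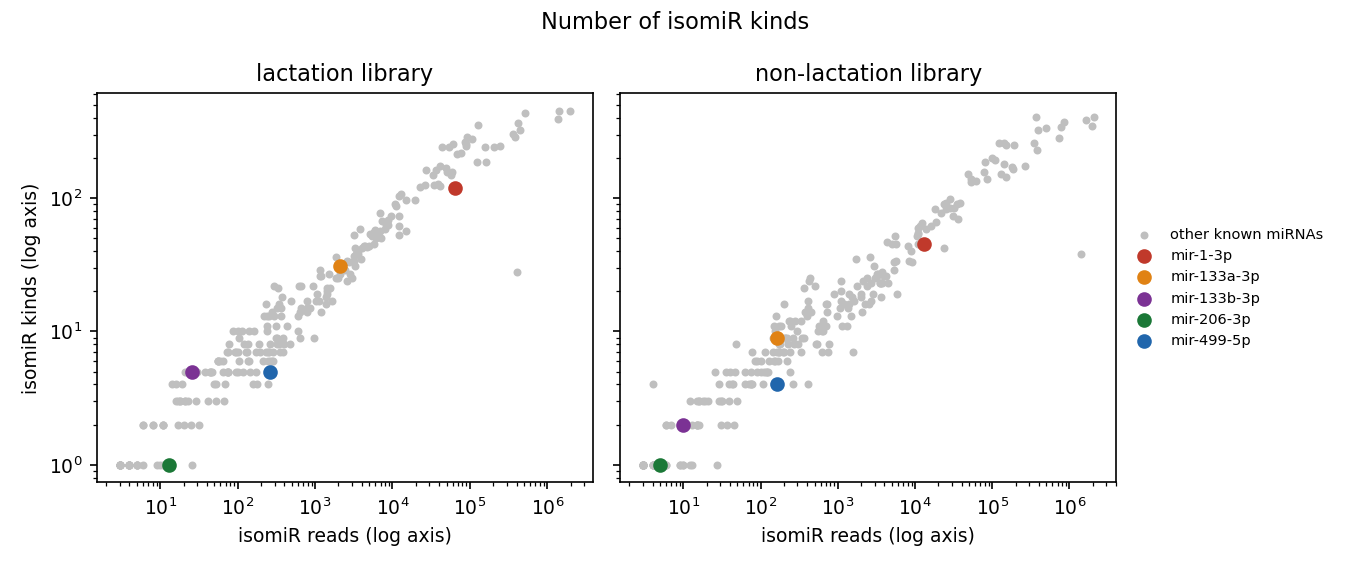
Number of isomiR kinds (log axis) against isomiR reads (log axis) for known miRNAs in lactating MG (left) and non-lactating MG (right). Kinds rise with reads. mir-1-3p, with 120 kinds in lactating MG, lies below known miRNAs of similar reads there.

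Other miRNAs known as enriched in striated muscle had far fewer reads than mir-1-3p. A list of 7 names held mir-486, which is also an erythroid miRNA, and mir-378 with its variant mir-378b. Its other names, mir-208a, mir-208b, mir-378c and mir-378d, were looked for and had no entry among the 883 miRNAs. The 3 names with an entry gave 5 entries, of which mir-486-5p alone passed Fisher's exact test as higher in lactating MG, and none passed as lower. Over all 883 miRNAs the shares were 17.4% and 10.9%, so the count of this list was near the general share. mir-486-5p had 194 reads in lactating MG and 44 in non-lactating MG, a ratio of 5.88 (4.22 to 8.36). It was thus above mir-499-5p in lactating MG (160 reads) and below it in non-lactating MG (82 reads). PC-486-5p had 11 reads in lactating MG and 6 in non-lactating MG. mir-378 is entered as a conserved miRNA (prefix PC), with 15 reads in lactating MG and 18 in non-lactating MG for PC-378-5p. PC-378-3p had 8 reads in lactating MG and was listed at 0 in non-lactating MG, and PC-378b-3p had 4 reads and 3 reads in lactating MG and non-lactating MG.

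The ratios nearest to those of mir-1-3p and mir-133a-3p belonged to mir-486-5p, of the list above, and to miRNAs outside the muscle lists. Likeness was taken as the distance in log2 ratio over the 2 libraries, among the 270 other miRNAs with at least 100 summed reads, and is a description. Nearest to mir-1-3p were mir-362-3p (ratio 6.80, 5.30 to 8.81), mir-486-5p and mir-200b-3p (5.77, 5.62 to 5.93). The candidate CN-263-3p tied with mir-200b-3p, since both entries list 28517 reads in lactating MG and 6598 in non-lactating MG. Nearest to mir-133a-3p were mir-141-3p (17.1, 15.2 to 19.3), mir-375-3p (13.9, 13.4 to 14.4) and mir-20b-5p (12.4, 9.86 to 15.7). Of these, only mir-362-3p, mir-486-5p and mir-141-3p had intervals that overlapped that of the muscle miRNA.

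Markers of other cell types differed between the libraries beside the muscle miRNAs. For the counts below, 17.4% of all 883 miRNAs passed Fisher's exact test as higher in lactating MG and 10.9% as lower. The epithelial list, which holds the mir-200 family alone (mir-141, mir-200a, mir-200b, mir-200c and mir-429, all 5 listed in both libraries) summed to 12435 RPM in lactating MG and 2045 RPM in non-lactating MG, a ratio of 6.08. Of its 10 entries, conserved ones included, 8 passed as higher and 1 as lower. Entries of some epithelial miRNAs outside the mir-200 family (mir-205, mir-203 and mir-31) were chosen after their values were seen. They do not stand for all such miRNAs, and mir-375-3p, which was higher in lactating MG (ratio 13.9), was not among them. mir-205-5p had 184 RPM in lactating MG and 693 RPM in non-lactating MG (ratio 0.266, 0.254 to 0.279), and PC-203-3p had 12.5 RPM in lactating MG and 47.0 RPM in non-lactating MG (ratio 0.265, 0.221 to 0.316), both passed as lower. PC-205-5p passed as lower too, and PC-31-5p, with 3 reads in lactating MG and 14 in non-lactating MG, did not. The endothelial mir-126 summed to 487 and 165 RPM in lactating MG and non-lactating MG, with 2 of 3 entries passed as higher, and the erythroid list (mir-451, mir-144 and mir-486, with mir-144-3p at 0 in non-lactating MG) to 91.7 and 32.9 RPM, with 2 of 4 entries passed as higher. Smooth muscle (mir-143 and mir-145) summed to 6515 and 4495 RPM in lactating MG and non-lactating MG, with 2 of 3 entries passed as higher. Of these, mir-145-5p had a ratio of 1.17, which became 0.979 with TMM, 0.966 with DESeq2 size factors and 0.880 without scaling. The stromal list (mir-199a, mir-199b and mir-214) summed to 2134 RPM in lactating MG, against 10073 RPM in non-lactating MG, and 3 of its 5 entries passed as lower. The leukocyte list (mir-142, mir-223 and mir-150) summed to 64.8 RPM in lactating MG, against 116 RPM in non-lactating MG, and 2 of its 5 entries, both arms of mir-142, passed as lower. The part of cell composition, or of muscle taken with the tissue, in the values of the 5 muscle miRNAs was not tested.

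**Figure D5:**
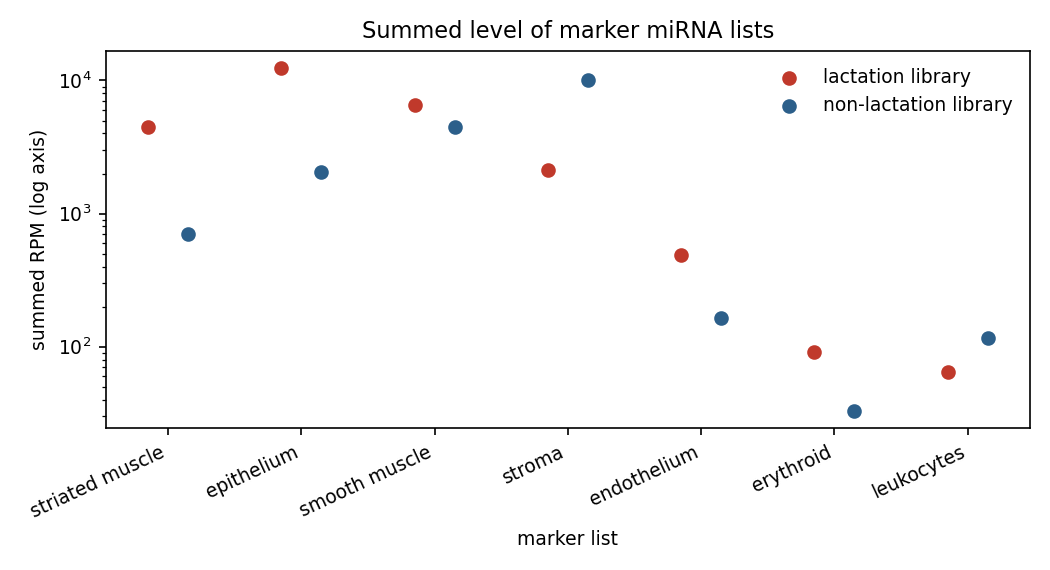
Summed RPM (log axis) of the marker miRNA lists, lactating MG left and non-lactating MG right in each pair, 1 library each. Striated muscle (4494 and 702 RPM in lactating MG and non-lactating MG) and the mir-200 family of epithelium (12435 and 2045 RPM) have the highest ratios of the 7 lists.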

How the data were processed

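Small RNA of the MG of a lactating and a non-lactating cow was sequenced by the authors on the Genome Analyzer. Reads were cleaned of adaptors and of other RNA classes and mapped with ACGT101-miR to miRBase 17.0 and the bovine genome BTA 4.0. The paper names a Qiagen miRNeasy kit for extraction, whereas the labels name Trizol. The deposited values are read counts, made by the authors by counting, per miRNA and library, the most abundant sequence and all isomiRs, with the number of isomiR kinds beside them. The isomiR columns of the CN (candidate) table were taken in reversed order, the only one that its values fit, and the 4 isomiR columns of the conserved table were not used.

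Totals were the clean reads given in the study. For ratios over all miRNAs a listed 0 was set to 3 reads. Fisher's exact test with Bonferroni adjustment used a threshold of 0.05, and the fold rule asked for a 4-fold ratio and 100 summed reads. The methods were tested on simulated counts. Named miRNAs are the 5 members, the other muscle miRNAs, marker lists, miRNAs with a shared seed, and the 3 nearest by log2 ratio to mir-1-3p and to mir-133a-3p, with ties. The members and lists were chosen with earlier results of these data known. The alternatives were 6 other scalings, all isomiR reads (known and CN miRNAs), Benjamini-Hochberg adjustment and other thresholds. Python 3.11.15, with scipy 1.17.1, numpy 2.4.6, matplotlib 3.10.9 and pandas 2.3.3, gave all values but the scaling factors of DESeq2 1.42.0 and edgeR 4.0.16 (R 4.3.3). RefSeq names come from ARS-UCD2.0, whose coordinates were not used.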

Additional observations from a re-analysis of the deposited data

How the results depend on the processing

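All 5 muscle miRNAs had a ratio above 1 under each of the 8 alternatives tried. The range was 4.76 to 6.82 for mir-1-3p, 15.1 to 21.6 for mir-133a-3p, 1.95 to 2.80 for mir-499-5p, 2.60 to 3.73 for mir-206-3p and 1.43 to 3.47 for mir-133b-3p, in each case with the lowest value without scaling. The 3 that passed Fisher's exact test passed under each alternative, with adjusted p up to 0.000529 for mir-499-5p without scaling. mir-206-3p (ratio 3.47) passed only with Benjamini-Hochberg adjustment (adjusted p = 0.0353), which counts 268 miRNAs as higher in lactating MG instead of 154. The median log2 ratio of the 5 was between 1.38 (no scaling) and 1.90. The count of miRNAs at least 4-fold higher, 29, became 83 with a minimum of 10 summed reads, 90 with no minimum, 79 at 2-fold and 14 at 8-fold, since these rules admit more or fewer miRNAs. The 273 miRNAs had a median log2 ratio of 0.24, which moved by -0.42 without scaling, with TMM by -0.26, with DESeq2 by -0.28, with raw reads by -0.10 and with the isomiR reads of known miRNAs by 0.10. The share of the 273 that was higher in lactating MG was 56.0% and became 45.4% without scaling. Leaving out entries listed at 0, chosen after seeing the data, gave a count of miRNAs higher by Fisher's exact test within the 108 to 192 of the alternatives in scaling and in reads counted. Among the markers, and also chosen after seeing the data, mir-145-5p (ratio 1.17) turned below 1 with TMM (0.979), with DESeq2 size factors (0.966) and without scaling (0.880). It passed as lower in the last 2 of these. PC-200b-3p lost its call with TMM, DESeq2, no scaling and raw reads, which left 7 of the 10 epithelial entries passed as higher. With TMM, DESeq2 and no scaling mir-223-3p passed as lower, which made 3 of the 5 leukocyte entries. No paired analysis was possible because each condition had 1 library. Depth limits mir-206-3p and mir-133b-3p, with at most 13 reads of the most abundant sequence in a library.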
